A study of Mus musculus with 5 samples.

Results

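Calcrl, Calcr, Ramp1, Ramp2, Ramp3 and Crcp encode the proteins from which the receptors for calcitonin gene-related peptide (CGRP) and amylin are assembled. They were chosen by name and are all 6 members of the set, out of 22532 genes in the deposited count matrices. The matrices came from single-nucleus RNA sequencing (snRNA-seq) of the mouse central amygdala (CeA), in which each count is a unique molecular identifier (UMI), that is, one captured RNA molecule. The set was followed across classes of nuclei that were gated by raw UMIs of marker genes, and between libraries from fed and from fasted mice, which addresses where in the CeA these receptor parts are transcribed, whether a receptor and its partner occur in the same nuclei, and whether food deprivation changes their level.

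CGRP does not signal through a single protein. Calcrl encodes the calcitonin receptor-like receptor, a secretin-family G protein-coupled receptor that reaches the cell surface and binds its ligand only together with a receptor activity-modifying protein: with RAMP1 it forms the CGRP receptor, and with RAMP2 or RAMP3 it forms receptors for adrenomedullin. Calcr encodes the calcitonin receptor, which becomes an amylin receptor when paired with a RAMP. Crcp encodes the receptor component protein, described both as an aid to coupling of the CGRP receptor to Gs and as a subunit of RNA polymerase III. In the CeA, CGRP is supplied by axons from the parabrachial nucleus that carry aversive and satiety signals, and Calcrl marks neurons of the capsular division.

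The data are 5 libraries. Normally fed mice gave 3 of them: fed replicates 1 and 2 from mice of 8 weeks labelled C57BL6 (C57BL/6NRj by the study's methods), and fed replicate 3 from Htr2a-Cre mice of 12 weeks, in which the CeA carried an AAV-DIO-mCherry virus so that Cre-expressing cells were labelled. The other 2 came from mice of 8 weeks of the same strain, fasted for 20 hours (fasted replicate 1) or 21 hours (fasted replicate 2). Every library was made from the pooled tissue of 1 male and 1 female (2 mice), so the pool and not the mouse is the replicate, and fed replicate 3 differs from the others in genotype, virus and age at once.

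After a filter of 500 to 8000 genes and under 0.8% mitochondrial UMIs, 7161 nuclei were kept, 1130 to 1734 per library, with library medians of 6608 to 16367 UMIs. Nuclei were first classed by summed UMIs of marker panels. The panel of Gad1, Gad2 and Slc32a1, the genes of GABA synthesis and vesicular loading, placed 4323 nuclei in the inhibitory class (676 to 1127 per library), and 55 were excitatory. The CeA is known as a largely GABAergic nucleus. Inhibitory nuclei were then gated by 9 markers. A nucleus entered a gate with at least 2 UMIs of the marker and at least 2 times the number expected from its depth (0.5 added to each), and one that met several gates (864 nuclei) went to the gate with the highest ratio. In all, 7 gates held at least 10 nuclei in every library: Cdh9 (281 nuclei), Prkcd (405), Sst (241), Dnah5 (305), Dlk1 (217), Foxp2 (373) and Rarb (584). By the study's own assignment, Rarb marks cells of the neighbouring amygdalostriatal area and Foxp2 the intercalated cells. The Tac1 gate (66 nuclei) and the Vdr gate (48) fell under 10 nuclei in a library and were not tested, and 1803 inhibitory nuclei met no gate. Only 3 barcodes of kept nuclei occurred in a second library, and the 72 nuclei called as doublets (1.01%) were kept.

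The oligodendrocyte panel also took up nuclei with neuronal markers: 594 of the 782 nuclei it claimed also held UMIs of the inhibitory panel. Glial levels are therefore given from a stricter class, set after the data were seen, of at least 6 panel UMIs and at least 4 times those of any other panel (412 astrocytes, 69 oligodendrocyte precursors, 233 oligodendrocytes). Gad2, which glia should lack, stood at 53.5 CPM (UMIs scaled to a fixed total per class) in strict astrocytes and 35.2 in strict precursors, against 336 in inhibitory nuclei.

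On GRCm39, Calcrl lies on chromosome 2 (84160957 to 84255755, minus strand), Calcr on chromosome 6 (3685680 to 3764714, minus strand), Ramp1 on chromosome 1 (91107540 to 91152918, plus strand), Ramp2 and Ramp3 on chromosome 11 (101136358 to 101150419 and 6608511 to 6627475, both plus strand) and Crcp on chromosome 5 (130058119 to 130089644, plus strand). The authors counted UMIs over exons and introns, so a level also reflects how much transcribed sequence a gene offers, and levels are compared below between classes and libraries, not between genes. Ramp2 shares 5846 bases on the same strand with Vps25 in a GENCODE annotation of GRCm39. Whether the annotation used for counting holds this overlap was not checked. Reads that fall in both genes may have been left unassigned, so the counts of Ramp2 are uncertain. The last 250 bases before the RefSeq start sites of Calcrl and Ramp1 are shown, less any base in an annotated exon, because these 2 members varied together across the gates. Both are written 5′ to 3′ on the strand of the gene, at chr2:84255756-84255860 and chr1:91107294-91107539 of GRCm39, with capitals for the motif matches.
Calcrl: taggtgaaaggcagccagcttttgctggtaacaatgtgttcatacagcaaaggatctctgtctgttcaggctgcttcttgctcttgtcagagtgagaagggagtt
Ramp1: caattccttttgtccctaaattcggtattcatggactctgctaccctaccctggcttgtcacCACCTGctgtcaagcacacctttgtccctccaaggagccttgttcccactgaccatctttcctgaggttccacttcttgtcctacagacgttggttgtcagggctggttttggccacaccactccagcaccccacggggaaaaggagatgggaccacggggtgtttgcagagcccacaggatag
Both strands of these windows were searched for 5 motifs. The GC box was searched as GGGCGG and the CCAAT box by the letters of its name. The TATA box was searched as TATAAA, and the cAMP response element, which CREB proteins bind when cAMP rises, as TGACGTCA. The E box was searched as CANNTG, and none of these motifs contains another. The single match was an E box in the Ramp1 window, a motif that 65.8% of the 32851 RefSeq promoters hold in the same stretch. The Calcrl window held none of the 5 motifs, which occur in 0.2% to 37.7% of promoters in that stretch. The windows had a GC content of 46.7% and 54.1%.

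Calcrl was highest in the Cdh9 gate among inhibitory neurons. Levels are given in CPM, the UMIs of the gene scaled to a fixed total of UMIs of the class in a library. In the Cdh9 gate, Calcrl stood at 214, 139 and 102 CPM in fed replicates 1, 2 and 3 and at 226 and 146 in fasted replicates 1 and 2 (165 ± 52.4, SD, n = 5). The Prkcd gate, whose marker is protein kinase C delta, followed with 141, 95 and 102 in the fed and 88.3 and 82.2 in the fasted libraries. In the Rarb gate the values were 71.0, 59.7, 76.0, 53.2 and 53.2 in the same order of libraries. The Dnah5 gate was uneven, with 33.5, 53.4 and 23.4 in the fed libraries and 4.74 and 42.9 in the fasted. Its value in fasted replicate 1 rests on 3 UMIs in 79 nuclei.

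The other gates held less Calcrl in most libraries. It ranged from 11.7 to 27.0 CPM over the 5 libraries in the Foxp2 gate, from 6.53 to 80.2 in the Dlk1 gate, from 3.17 to 10.3 in the Sst gate and from 7.66 to 19.1 in inhibitory nuclei that met no gate. By the mean of 5 libraries the Dlk1 gate (34.4) stood above the Dnah5 gate (31.6), and by pooled UMIs below it (16.0 against 33.2). The high end of the Dlk1 gate came from fed replicate 1, where it held 18 nuclei and where 1 nucleus gave 9 of 18 Calcrl UMIs. Within libraries, the order was the same in all 5 from Prkcd to Rarb (1.34 to 1.99 times) and from Rarb to Dnah5 (1.12 to 11.2 times). It was not so at the top: the Cdh9 gate exceeded the Prkcd gate in 4 of 5 libraries, and in fed replicate 3 both stood at 102. The range of the Dlk1 gate overlapped those of the Foxp2 and Sst gates and of ungated nuclei, and the Sst gate lay below the Foxp2 gate without overlap.

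**Figure D1:**
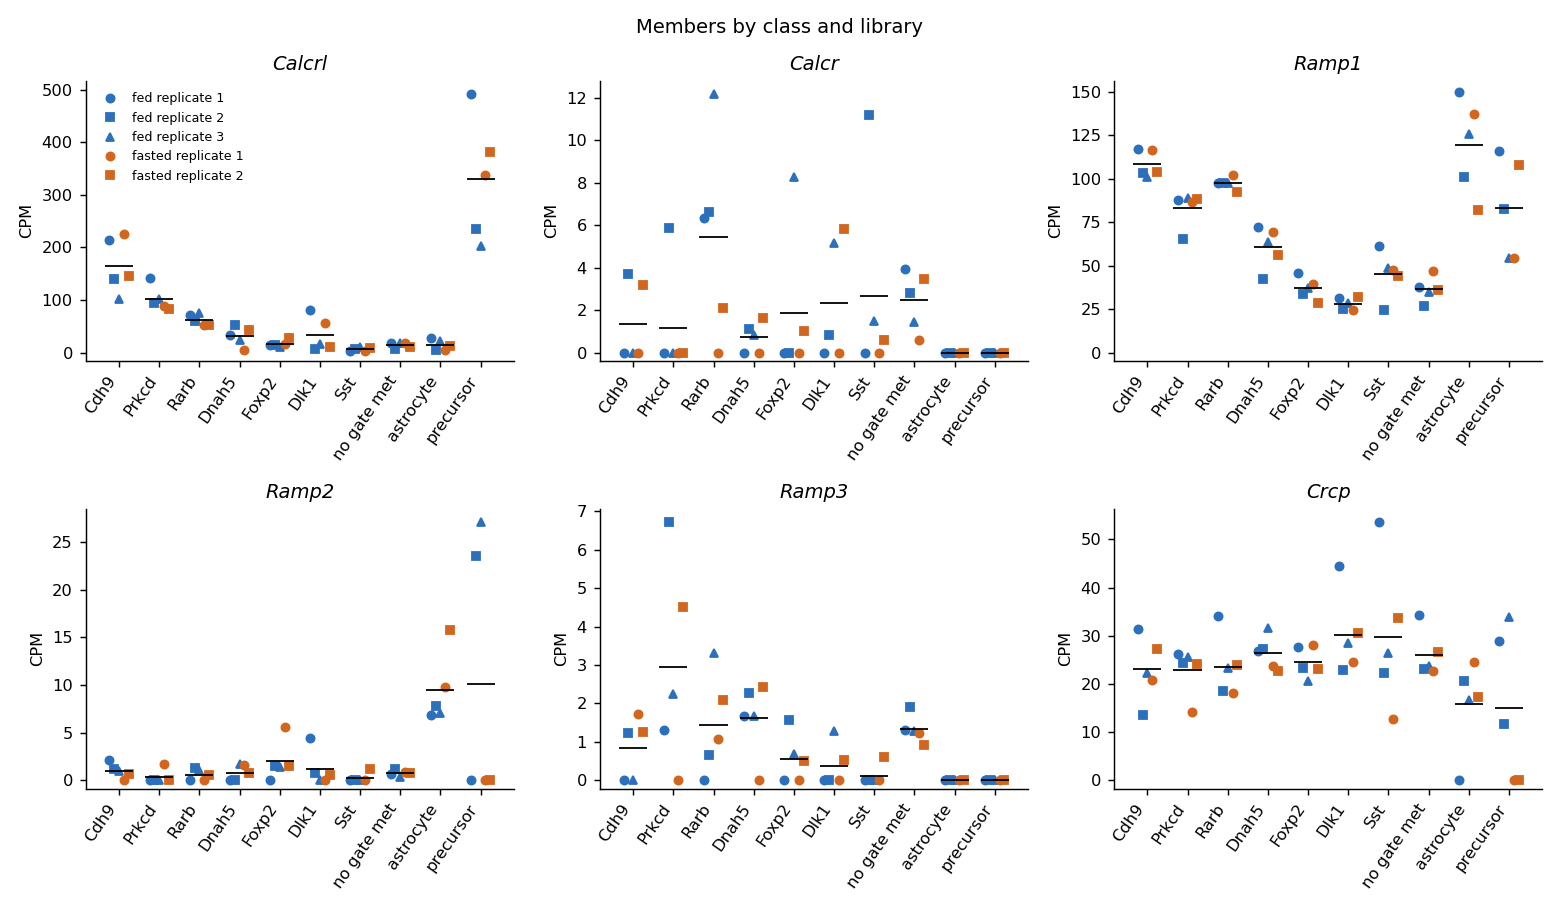
Level of each of the 6 genes (y axis, CPM; each panel has its own scale) in 7 inhibitory gates, inhibitory nuclei with no gate met, and strict astrocytes and oligodendrocyte precursors (x axis). Each point is a library, blue for fed and orange for fasted, and the line is the mean of the 5; Calcrl is at 204 to 492 in precursors and 102 to 226 in the Cdh9 gate, and Crcp shows no such steps across gates.

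Outside the neurons, Calcrl was higher still in oligodendrocyte precursors, the dividing glia marked by Pdgfra. In strict precursors it stood at 492, 236 and 204 CPM in the fed and 338 and 381 in the fasted libraries, from 182 UMIs in 69 nuclei. These values were above the Cdh9 gate of the same library in 5 of 5 libraries, by 1.50 to 2.60 times, and no further test was made since the strict class was set after the data were seen. Without the stricter rule, the 113 precursors ranged from 227 to 416. Strict astrocytes were at 4.90 to 27.2.

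The share of nuclei with Calcrl had the same order in the Cdh9, Prkcd and Rarb gates. To compare shares at equal depth, each nucleus was thinned to 4000 UMIs and shallower nuclei were left out (4218 of 4323 inhibitory nuclei and 197 of 412 strict astrocytes remained). Calcrl was then seen in 30.7% of nuclei in the Cdh9 gate (95% exact Clopper-Pearson interval 25.3% to 36.5%), 25.4% in the Prkcd gate (21.2% to 30.0%), 15.0% in the Rarb gate (12.2% to 18.2%) and 71.0% of strict precursors (58.1% to 81.8%). In the Sst gate it was seen in 0.84% (0.102% to 3.00%). Strict astrocytes, whose library medians were 2537 to 4502.5 UMIs before thinning against 8841 to 20933 in the Cdh9 gate, gave 4.57% (2.11% to 8.50%), a share that may include free RNA. The Dnah5 gate (5.94%), the Foxp2 gate (5.04%), the Dlk1 gate (6.02%) and ungated inhibitory nuclei (4.43%) lay within that interval. The intervals of the Dnah5 gate (3.56% to 9.23%), the Dlk1 gate (3.24% to 10.1%) and ungated nuclei (3.51% to 5.51%) lay above that of the Sst gate. That of the Foxp2 gate (3.02% to 7.85%) lay only just above it. Unthinned, the shares were 56.2% in the Cdh9 gate, 45.2% in the Prkcd gate, 28.8% in the Rarb gate, 9.13% in the Sst gate, 78.3% in strict precursors and 5.34% in strict astrocytes. Intervals cover counting error only.

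Of the 855 inhibitory nuclei with a Calcrl UMI, 183 were in the Prkcd gate, 168 in the Rarb gate, 158 in the Cdh9 gate and 196 in no gate. The Cdh9 gate thus held 18.5% of them, although its level was highest.

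Calcr, the receptor part of the amylin receptors, was detected in few nuclei. It had 192 UMIs in 83 of 4323 inhibitory nuclei (1.92%). Among the shallower glia it was seen in 0 of 412 strict astrocytes and 0 of 69 strict precursors. After thinning, Calcr was seen in 0.81% of inhibitory nuclei. A count of 0 allows a share of up to 1.52% (3 counts) in the 197 strict astrocytes deep enough to be thinned. In the 62 such strict precursors it allows up to 4.84%. These counts of 0 therefore do not separate the glia from inhibitory nuclei. The Rarb gate held 23 of the 83 nuclei and 52 of the UMIs. There, Calcr stood at 6.34, 6.63 and 12.2 CPM in the fed libraries, from 5, 10 and 33 UMIs, and at 0 and 2.09 in the fasted libraries, from 0 and 4 UMIs. In fed replicate 3, 13 of the 33 UMIs were in 1 nucleus. In each of the other 6 gates, at least 2 of the 5 libraries were at 0. Of the 83 nuclei with Calcr, 15 also had Calcrl. Calcr did not pass the count filter of the gate comparison and so has no test there.

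Ramp1, the partner that makes Calcrl a CGRP receptor, was spread more evenly over the same gates. In the Cdh9 gate it stood at 117, 103 and 101 CPM in the fed and 116 and 104 in the fasted libraries. The Rarb gate was close behind and the most even of all, with 97.6, 97.5, 97.8, 102 and 92.4 in the same order, and the Cdh9 gate was above it in 5 of 5 libraries by only 1.04 to 1.20 times. The Prkcd gate had 87.6, 65.6, 88.8, 86.5 and 88.2. Below these 3 came the Dnah5 gate (42.1 to 72.0), the Sst gate (24.6 to 61.4), the Foxp2 gate (28.5 to 46.0) and the Dlk1 gate (24.5 to 31.7), while ungated nuclei were at 26.8 to 47.1.

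Strict astrocytes carried Ramp1 at 150, 101 and 126 CPM in the fed and 137 and 82.0 in the fasted libraries, with Calcrl at 27.2 or lower. Strict precursors had 54.3 to 116. The level in strict astrocytes was above that in the Cdh9 gate in 3 of 5 libraries, so their order was not stable. After thinning, Ramp1 was seen in 34.0% of strict astrocytes (27.4% to 41.1%) and 29.2% of the Cdh9 gate (24.0% to 35.0%). The Rarb gate had 30.7% (26.9% to 34.6%) and the Prkcd gate 25.2% (21.0% to 29.7%), with intervals that overlap that of the Cdh9 gate. Strict microglia had 6.67% (1.40% to 18.3%) and the Dlk1 gate 8.33% (5.01% to 12.9%).

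**Figure D2:**
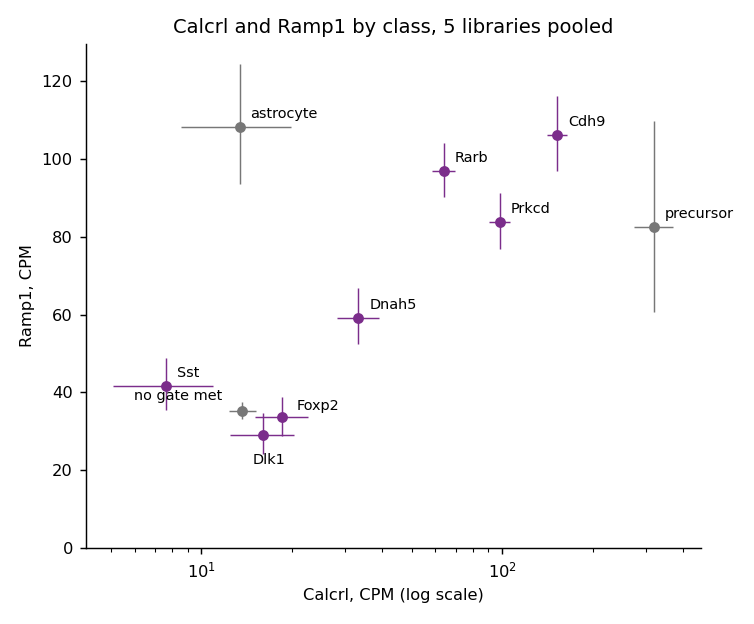
Calcrl (x axis, CPM, log scale) against Ramp1 (y axis, CPM) with the 5 libraries pooled; purple points are the 7 tested inhibitory gates, grey points the other classes, and bars are 95% Poisson intervals, which cover counting error only. Gates high in Calcrl are mostly high in Ramp1, but the order differs. The Sst gate is lowest in Calcrl (7.61) and the Dlk1 gate in Ramp1 (29.0), and the Rarb gate has less Calcrl but more Ramp1 than the Prkcd gate. Astrocytes combine a Ramp1 of 108 with a Calcrl of 13.4, and precursors combine a Calcrl of 320 with a Ramp1 of 82.6.

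Over the 7 gates, the mean log2 levels of Calcrl and Ramp1 had a Pearson correlation of 0.80. Over 10 classes, with astrocytes, oligodendrocytes and precursors added under the first class rule, it was 0.57. All points share the same 5 libraries, so these values describe the pattern and carry no p. With Calcrl, the correlation over the gates was 0.65 for Ramp3, 0.03 for Ramp2, -0.01 for Calcr and -0.75 for Crcp. In no gate did Ramp3 exceed 22 UMIs, Ramp2 8 or Calcr 52, so the values of these genes rest on few counts.

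Ramp2 and Ramp3 were rare in inhibitory neurons. Ramp2 had 52 UMIs in 48 inhibitory nuclei and 0.60 to 1.00 CPM over the libraries. It was higher in strict astrocytes, at 6.81, 7.76 and 7.12 in the fed and 9.80 and 15.8 in the fasted libraries, from 19 UMIs, and the ranges of astrocytes and inhibitory neurons did not overlap. How many of all genes separate these classes in this way was not counted, and the strict class was set after the data were seen. Pooled over libraries, Ramp2 was at 10.5 CPM in strict precursors (6 UMIs, 3 libraries at 0). In the 55 excitatory nuclei it was at 5.69 CPM, with 6 nuclei positive and 2 libraries at 0. Of 20 vascular nuclei, in which RAMP2 is known as the partner for adrenomedullin signalling, 4 had a Ramp2 UMI. Ramp3 had 93 UMIs in 85 inhibitory nuclei, 17 of them in the Prkcd gate, where it ranged from 0 to 6.73. It was seen in 0 of 412 strict astrocytes, where a count of 0 allows a share of nuclei with a UMI of up to 1.52% (3 counts) in the 197 deep enough to be thinned.

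Crcp did not follow the receptors. It stood at 32.5, 22.2 and 24.2 CPM in all inhibitory nuclei of the fed and 21.2 and 26.5 of the fasted libraries. The gate means lay between 22.9 ± 4.97 (SD, n = 5, Prkcd gate) and 30.2 ± 8.60 (Dlk1 gate).

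The gates were compared with edgeR's quasi-likelihood test on UMIs summed per gate and library, with the library as a block and Benjamini-Hochberg adjustment over the 9361 genes that passed the count filter, among them Calcrl, Ramp1 and Crcp. Calcr, Ramp2 and Ramp3 were too low to pass. In the test for any difference among the 7 gates, Calcrl (adjusted p = 1.57e-14) and Ramp1 (adjusted p = 2.48e-17) passed at 0.05 and Crcp did not (adjusted p = 0.511). Such a call is common, since 48.9% of tested genes passed. Cdh9 itself was a marker chosen in the knowledge that the study found a Cdh9 and Calcrl cluster in these same nuclei, so a high Calcrl there is not independent evidence.

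Against the mean of the other 6 gates, Calcrl was higher in the Cdh9 gate by 2.49 ± 0.19 on the log2 scale (SE, adjusted p = 3.42e-13), the 5th highest difference of all tested genes, where 14% of genes passed. It was higher in the Prkcd gate by 1.64 ± 0.19 (adjusted p = 3.25e-09, 34% of genes passed) and in the Rarb gate by 1.00 ± 0.20 (adjusted p = 0.000178, 19.7% passed). It fell by 2.60 in the Sst gate (SE 0.40, adjusted p = 2.59e-06, 15.4% passed), by 1.09 in the Foxp2 gate (SE 0.30, adjusted p = 0.00464, 26.3% passed) and by 1.27 in the Dlk1 gate (SE 0.33, adjusted p = 0.0062, 13.7% passed). In the Dnah5 gate the difference was -0.18 ± 0.27 (adjusted p = 0.736, 21.3% passed). The Dlk1 call was lost without fed replicate 2 (log2 -0.93, adjusted p = 0.111), without fasted replicate 2 (-0.88, adjusted p = 0.197) and in the fed libraries alone (-1.09, adjusted p = 0.0613), and the Foxp2 call without fed replicate 3 (-0.90, adjusted p = 0.0511).

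Ramp1 moved the same way by smaller steps. It was higher in the Cdh9 gate by 1.06 ± 0.09 (SE, adjusted p = 3.23e-12), in the Rarb gate by 0.93 ± 0.08 (adjusted p = 2.57e-12) and in the Prkcd gate by 0.56 ± 0.08 (adjusted p = 7.85e-07). It was lower in the Dlk1 gate by -1.17 ± 0.12 (adjusted p = 2.07e-09), in the Foxp2 gate by -0.85 ± 0.11 (adjusted p = 6.76e-08) and in the Sst gate by -0.54 ± 0.11 (adjusted p = 0.000455). In the Dnah5 gate it differed by 0.01 ± 0.09 (adjusted p = 0.961). Under a stricter gate of at least 3 UMIs and 4 times the expected number, the Prkcd difference was 0.23 and no longer passed (adjusted p = 0.0838). That fit lacked the Dlk1 gate, the lowest in Ramp1, so the gate rule and the mean it was compared with changed together. Crcp passed in none of the 7 contrasts, with log2 differences from -0.16 to 0.23 and adjusted p from 0.375 to 0.795.

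**Figure D3:**
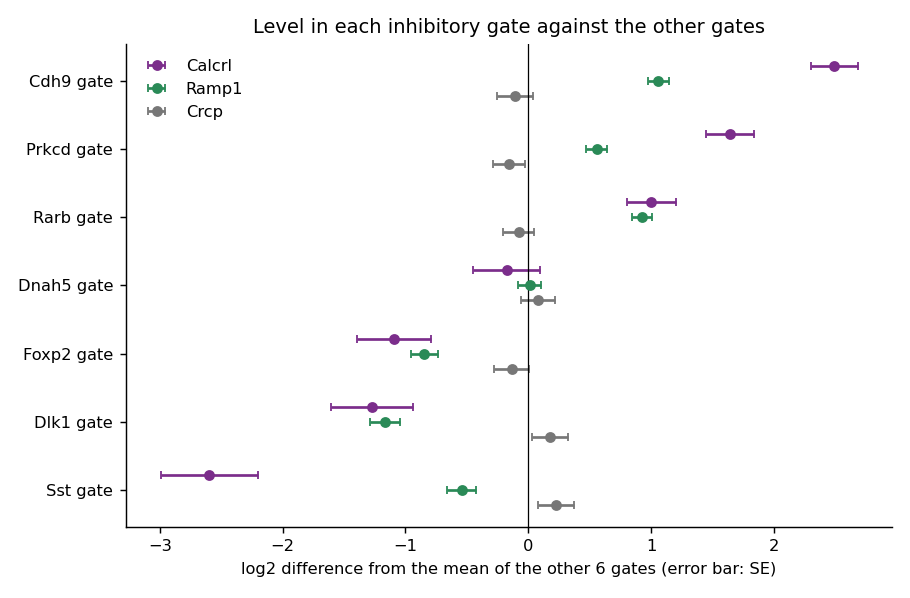
Log2 difference (x axis) of Calcrl, Ramp1 and Crcp in each inhibitory gate (y axis) from the mean of the other 6 gates; bars are the SE of the edgeR fit over 5 libraries. Calcrl runs from 2.49 in the Cdh9 gate to -2.60 in the Sst gate, Ramp1 from 1.06 in the Cdh9 gate to -1.17 in the Dlk1 gate, and Crcp stays between -0.16 and 0.23.

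The Cdh9 and Prkcd gates, which hold the highest neuronal Calcrl, were also set against each other, where 22.9% of genes passed. The study reports Prkcd cells in its Cdh9 and Calcrl cluster as well, and a nucleus that met both gates went to the higher ratio. How far the comparison depends on that split was not tested. Calcrl was higher in the Cdh9 gate by 0.73 ± 0.22 (SE, adjusted p = 0.0107). This call was lost when either fasted library was left out: the difference was 0.56 without fasted replicate 1 (adjusted p = 0.0532), 0.68 without fasted replicate 2 (adjusted p = 0.0557) and 0.42 in the fed libraries alone (adjusted p = 0.286). Ramp1 was higher by 0.43 ± 0.11 (adjusted p = 0.00205), and higher in 5 of 5 libraries. It did not pass with DESeq2 (0.45, adjusted p = 0.076). That fit used the sums of these gates alone, so the test and the samples changed together. Crcp differed by 0.04 ± 0.18 (adjusted p = 0.934).

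Genes that act downstream of these receptors were taken as lists. The CGRP and amylin receptors raise cAMP through Gs, and the first list holds 17 genes of that path: Gnas and Gnal (stimulatory alpha subunits), adenylyl cyclases, protein kinase A subunits, Creb1 and Crem. All 17 were tested. In the Cdh9 gate 4 were higher and 1 lower than in the other gates, where 8.56% of tested genes were higher and 5.42% lower, with a median log2 difference of 0.02 over the list and 0.00 over all genes. Adcy5, a cyclase abundant in striatal-type neurons, was higher by 0.83 ± 0.08 and Gnal by 0.73 ± 0.08, while Gnas was lower at -0.83 ± 0.14. In the Rarb gate 6 were higher and 4 lower (11.3% and 8.42% of all genes), with Adcy5 at 1.19 ± 0.07, Gnal at 1.08 ± 0.07 and Adcy2 at -1.97 ± 0.11. In the Prkcd gate 2 were higher and 8 lower (17.3% and 16.7% of all genes), with Adcy6 at 0.71 ± 0.10, Adcy8 at -1.90 ± 0.27 and Prkar2b, a regulatory subunit of protein kinase A, at -1.19 ± 0.10. A lower Gnas was not particular to the Cdh9 gate. Gnas was at -0.92 ± 0.13 in the Prkcd gate, -0.73 ± 0.14 in the Foxp2 gate and -0.45 ± 0.13 in the Rarb gate, and at 1.37 ± 0.11 in the Dnah5 gate. In the Sst gate, where Calcrl was lowest, 2 were higher and 1 lower (8.93% and 6.52% of all genes), with Gnas at 1.58 ± 0.11. Directly between the Cdh9 and Prkcd gates, 7 were higher and 2 lower in the Cdh9 gate (12.4% and 10.5% of all genes), among them Adcy1 at 1.50 ± 0.23, Prkar2b at 1.22 ± 0.13 and Gnal at 1.03 ± 0.11.

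The second list holds 10 genes of receptor desensitization, traffic and peptide breakdown, of which 9 were tested. In the Cdh9 gate 3 were higher and 0 lower (8.56% and 5.42% of all genes): Grk3 by 0.55 ± 0.10 and Grk5 by 0.48 ± 0.11, which encode receptor kinases, and Ece1, an endopeptidase that degrades CGRP in endosomes, by 0.28 ± 0.10. In the Prkcd gate 3 were higher and 2 lower (17.3% and 16.7% of all genes), with Arrb2, a beta-arrestin, at 0.87 ± 0.14, Grk5 at 0.82 ± 0.10 and Mme, the peptidase neprilysin, at -2.05 ± 0.51. In the Rarb gate 3 were higher and 3 lower (11.3% and 8.42% of all genes), and in the Sst gate 1 was higher and 0 lower (8.93% and 6.52%). Of 13 other secretin-family receptor genes, 6 passed the filter. In the Cdh9 gate 1 was higher and 2 lower (8.56% and 5.42% of all genes). Adcyap1r1, the receptor for PACAP, was higher by 0.54 ± 0.14, while Vipr2, a receptor for VIP, was at -2.21 ± 0.65 and Pth2r at -1.62 ± 0.48. Neither low value was particular to the Cdh9 gate. Vipr2 was at 5.60 ± 0.20 in the Dnah5 gate and 2.13 ± 0.35 in the Sst gate, but at -2.46 ± 0.63 in the Foxp2 gate and -2.75 ± 0.57 in the Rarb gate. Pth2r was at 3.04 ± 0.22 in the Foxp2 gate and 1.48 ± 0.25 in the Rarb gate, but at -1.71 ± 0.47 in the Dnah5 gate and -1.89 ± 0.49 in the Dlk1 gate. In the Prkcd gate 0 were higher and 3 lower (17.3% and 16.7% of all genes). Crhr1, a receptor for corticotropin-releasing hormone, was at -2.50 ± 0.36, Vipr1 at -1.95 ± 0.34 and Pth2r at -1.76 ± 0.42. In the Sst gate 3 were higher and 1 lower (8.93% and 6.52% of all genes), with Pth2r at 2.46 ± 0.26 and Adcyap1r1 at -0.66 ± 0.17. In the Rarb gate 4 were higher and 1 lower (11.3% and 8.42% of all genes). Of the 10 RNA polymerase III genes, the other setting in which Crcp is known, Polr3d was higher in the Dnah5 gate by 0.84 ± 0.20 (adjusted p = 0.00135) and Polr3gl in the Foxp2 gate by 0.56 ± 0.16 (adjusted p = 0.00724). None of the 10 passed in the other 5 gates. Of all 9361 tested genes, 1110 were higher in the Dnah5 gate and 1243 in the Foxp2 gate, so 1 call among 10 is near the share of all genes.

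The ligand genes were nearly absent. Calca, which encodes CGRP, had 10 UMIs in all inhibitory nuclei together, Calcb 18 and Adm 21, and Iapp, which encodes amylin, had 0. None passed the filter in any comparison. Of the 18 Calcb UMIs, 11 were in the Prkcd gate.

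Nuclei with Calcrl held more Ramp1 than nuclei without it. Of 855 inhibitory nuclei with a Calcrl UMI, 551 also had Ramp1, which was seen in 1805 of all 4323. In nuclei with Calcrl, Ramp1 stood at 101, 85.9 and 90.2 CPM in the fed libraries and 111 and 90.0 in the fasted, and in nuclei without it at 47.2, 32.7 and 45.5 in the fed and 56.4 and 39.9 in the fasted. Every library was thus higher with Calcrl than without, and the 2 sets of values did not overlap. The mean log2 ratio was 1.13 ± 0.17 (SD, n = 5, range 0.98 to 1.39). With 5 libraries the two-sided exact sign-flip permutation test cannot go below p = 0.0625, which is the value obtained, so it could not pass 0.05. This was the one pair of the 6 formed by 2 receptors and 3 Ramps with at least 5 Ramp UMIs in receptor-positive nuclei of every library.

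Both genes were higher in the same gates, and nuclei with Calcrl were also deeper (library medians of 8197 to 20506.5 UMIs against 7331 to 18369). Compared only with nuclei of the same gate and the same side of its median depth, the mean log2 ratio was 0.76 (0.58 to 0.87), positive in 5 of 5 libraries. With every nucleus thinned to 4000 UMIs it was 1.00 (0.39 to 1.28), and without called doublets 1.15. A positive value in all 5 libraries was found for 15% of 9804 genes in the pooled comparison and for 9.83% in the one within gate and depth. By the mean ratio, Ramp1 ranked 67th in the first and 77th in the second, while the median gene stood at -0.03 and -0.01. These genes had at least 5 UMIs in the nuclei with Calcrl of every library. No such minimum was set for nuclei without Calcrl, so the filter can favour sparse genes that are high with Calcrl.

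The excess of Ramp1 in Calcrl nuclei was seen within gates, though not in all of them. In the Prkcd gate Ramp1 was 2.19 times as high in nuclei with Calcrl as in those without, over the pooled libraries, and higher in 5 of 5 libraries (1.73 to 2.60 times). The ratio was 1.78 in the Cdh9 gate (5 of 5 libraries, but from 1.05 to 3.60 times). It was 1.80 in the Dnah5 gate (5 of 5, 1.27 to 2.80 times) and 1.82 in ungated nuclei (5 of 5, 1.49 to 2.21 times). The Dnah5 gate held only 48 nuclei with Calcrl, 3 of them in fasted replicate 1, so its value in that library rests on few nuclei. The ratio was 1.23 in the Rarb gate, where 1 of 5 libraries went the other way and where Ramp1 was already at 89.8 CPM without Calcrl. In the Sst gate (1.02, 22 nuclei with Calcrl), the Dlk1 gate (1.07, 32 nuclei) and strict astrocytes (0.93, 22 nuclei) the ratio was near 1, and in the Foxp2 gate it was 1.27 (36 nuclei). Of nuclei with Calcrl, 80.4% had Ramp1 in the Cdh9 gate, 76.5% in the Prkcd gate, 69.0% in the Rarb gate and 44.4% among strict precursors. At an equal depth of 4000 UMIs these shares were 41.2%, 37.3%, 36.0% and 27.3%.

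With nuclei thinned to 4000 UMIs, the pooled ratio was 1.58 in the Prkcd gate, 1.59 in the Cdh9 gate, 1.26 in the Rarb gate and 1.49 in ungated nuclei. It was 3.46 in the Dnah5 gate and 0.34 in the Foxp2 gate, with 18 nuclei with Calcrl in each, and 0.87 in the Dlk1 gate, with 13.

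**Figure D4:**
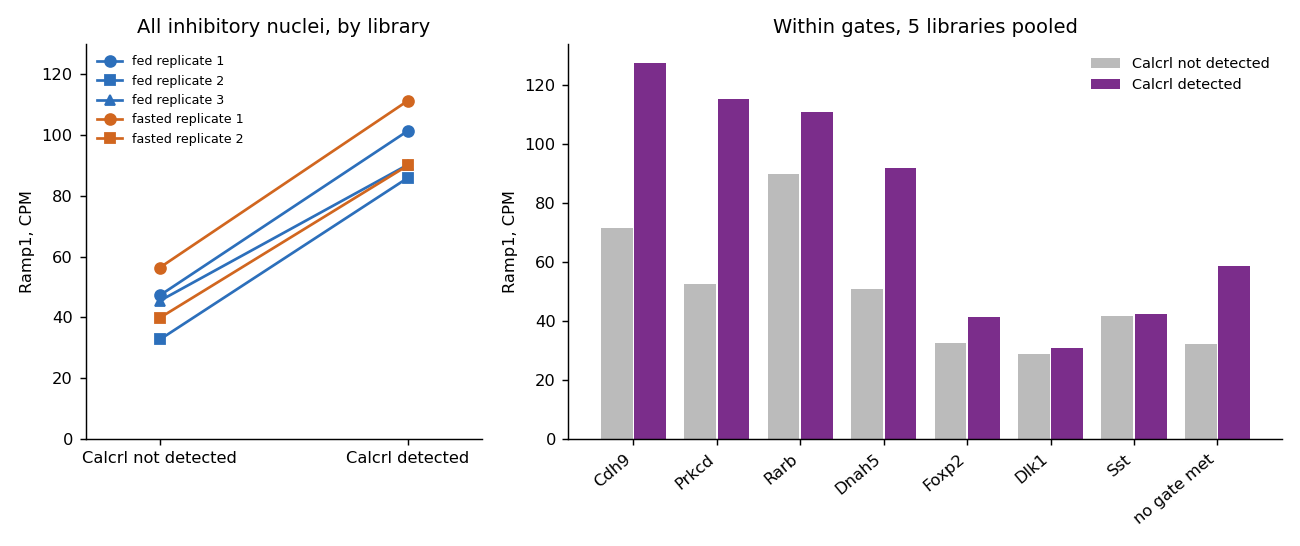
Ramp1 (y axes, CPM) in inhibitory nuclei with and without a Calcrl UMI. Left, each line is a library, blue for fed and orange for fasted, and all 5 rise; right, bars give the 5 libraries pooled within each gate, without error bars, with the widest gap in the Prkcd gate (115 against 52.6) and none to speak of in the Sst gate (42.3 against 41.7).

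The other pairs were sparse. Among the 855 nuclei with Calcrl, 27 had Ramp3 and 11 had Ramp2, of 85 and 48 inhibitory nuclei with these genes. In the Prkcd gate, Ramp3 was at 5.08 CPM with Calcrl and 1.90 without, from 17 nuclei with Ramp3. With nuclei thinned to 4000 UMIs the order turned, at 2.45 with Calcrl and 5.85 without, from 5 nuclei with Ramp3, so no direction can be read. Among the 83 nuclei with Calcr, 38 had Ramp1, 3 had Ramp3 and 0 had Ramp2. None of these could be tested.

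Fasting was tested on UMIs summed per class and library, 2 fasted against 3 fed, with the same edgeR test. Calcrl in all inhibitory neurons was at 55.1, 31.6 and 41.7 CPM in the fed and 45.5 and 33.2 in the fasted libraries, so the groups overlapped. The log2 change was -0.13 ± 0.24 (SE, adjusted p = 1.00). Ramp1 was at 59.9, 43.0 and 57.9 in the fed and 65.9 and 50.5 in the fasted libraries, a change of 0.10 ± 0.19 (adjusted p = 1.00). For Crcp it was -0.13 ± 0.19, for Ramp2 -0.01 ± 0.45 and for Ramp3 -0.33 ± 0.42, and none passed. Calcr had the widest change, at 2.54, 3.44 and 4.04 in the fed and 0.30 and 2.56 in the fasted libraries (-0.99 ± 0.52, unadjusted p = 0.0879). In this comparison 0.00747% of 13381 genes passed, which is 1 gene, Ptgds, named here after its value was seen (log2 2.91 ± 0.20, adjusted p = 0.00235).

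Within gates, Calcrl did not pass, and the sign of its change was not the same in all of them. In the Cdh9 gate the change was 0.35 ± 0.27 (adjusted p = 0.999) and 0% of 8187 genes passed (486 at an unadjusted p under 0.05, and 2 with DESeq2). In the Prkcd gate it was -0.42 ± 0.22 (unadjusted p = 0.0687, adjusted p = 0.699). There the 2 fasted values were 88.3 and 82.2 and the 3 fed values 95 to 141, and 0.153% of genes passed. How many of all genes separate in this way was not counted. In the Dnah5 gate it was -0.43 ± 0.52 (adjusted p = 0.963, 0.0593% of genes passed), and single libraries decided that value: it was 0.20 without fasted replicate 1, 0.01 without fed replicate 2 and -2.90 without fasted replicate 2 (adjusted p = 0.0763). The 5 genes called in that gate include no member. In astrocytes under the first class rule it was -0.57 ± 0.52 (adjusted p = 0.978, 0.883% of genes passed). The test for a different effect of fasting between the 7 gates called 0% of 9361 genes (546 at an unadjusted p under 0.05 in edgeR), with adjusted p of 0.995 for Calcrl and 1.00 for Ramp1 and Crcp. Ramp1 changed by 0.08 ± 0.21 in the Cdh9 gate, 0.10 ± 0.21 in the Prkcd gate, 0.06 ± 0.26 in the Dnah5 gate and -0.34 ± 0.29 in astrocytes.

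**Figure D5:**
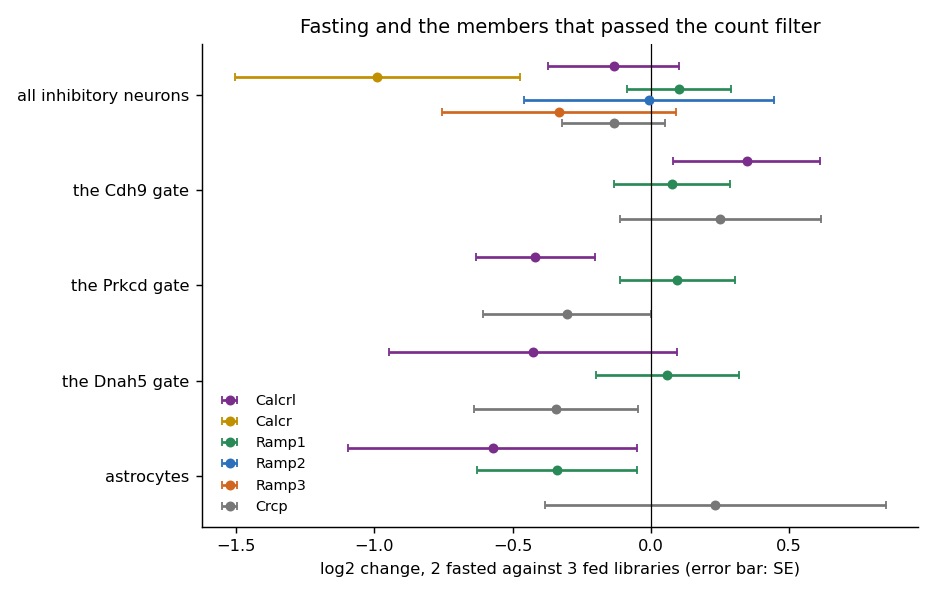
Log2 change (x axis) of the members that passed the count filter, 2 fasted against 3 fed libraries, in 5 summed classes (y axis); bars are the SE of the edgeR fit. The values lie between -0.99 (Calcr in all inhibitory neurons) and 0.35 (Calcrl in the Cdh9 gate), and none passed.

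With the replicate number as a block, taken as the preparation batch, which pairs fed and fasted replicate 1 and fed and fasted replicate 2, many more genes passed (403 in all inhibitory neurons, 50 in the Cdh9 gate, 119 in the Prkcd gate, 124 in the Dnah5 gate and 188 in astrocytes). No member was among them. Fed replicate 3 has no partner in this block, so the fasting difference there rests on the pairs alone and little is left to estimate the spread. Over 196 member values from the alternative settings, the lowest adjusted p was 0.0763 and none passed. These data do not show that the members were unaffected by fasting: with 2 fasted libraries the SE of Calcrl was 0.22 to 0.52 on the log2 scale.

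Outside the planned comparisons, Calcr in the Rarb gate was tested after its values were seen. The 2 fasted values were 0 and 2.09 and the 3 fed values 6.34 to 12.2, and how many of all genes separate in this way was not counted. Over all genes Calcr did not pass (unadjusted p = 0.00139, adjusted p = 0.206), and the counts behind it are 48 UMIs in fed and 4 in fasted libraries. It met the count filter of this fit only through fed libraries, where it is high. The filter and the test thus drew on the same difference, so this p is not a fair test. Calcrl in the Foxp2 gate changed by 0.87 ± 0.39 (unadjusted p = 0.0355, adjusted p = 1.00). These are the lowest unadjusted p of the members in the fits added in further classes, where no member passed. Calcrl went the other way in the Rarb gate (-0.39 ± 0.21), the Dlk1 gate (-0.36 ± 0.72), ungated inhibitory nuclei (-0.11 ± 0.38) and precursors under the first class rule (-0.07 ± 0.30). In strict precursors Calcrl changed by 0.30 ± 0.34 (adjusted p = 0.958).

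The genes most like each member across classes were taken by the Pearson correlation of mean log2 levels over 10 classes, among 12134 genes with at least 5 CPM in a class. The 5 nearest to Calcrl were Slx4ip (0.89), Cd101 (0.88), Fam161a (0.87), Enc1 (0.87) and the Y-linked Eif2s3y (0.86), and all but Enc1 had their highest level in precursors. Nearest to Calcr were Lpl (0.90), Calb1 (0.88), Timm29 (0.87), Igf2bp2 (0.87) and Med26 (0.87), of which all but Timm29 were highest in the Rarb gate. Nearest to Ramp1 were Ankrd49 (0.93), Tsen54 (0.91), Gmpr2 (0.87), Phf21b (0.87) and Alg12 (0.87). For Ramp2 they were Nfatc3, D630003M21Rik, Cbx5, Psap and Appl2 (0.96 to 0.98), all highest in astrocytes, and for Ramp3 Prpf19, Ptcd1, Exosc3, Rccd1 and Ppp1cb (0.92 to 0.97), all highest in the Prkcd gate. Ramp3 itself had its highest mean level, 2.96 CPM, in the Prkcd gate, under the limit of 5 CPM set for the candidates. With so many genes and 10 points, values of this size describe the pattern only.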

How the data were processed

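Libraries of the CeA of fed (n = 3) and fasted (n = 2) mice were prepared with a 10x 3′ kit. The authors deposited raw UMI counts per gene and nucleus. The matrix headers name Cell Ranger 5.0.0 and the study's methods GRCm39 with introns included, whereas the submitters' processing notes list Cell Ranger 2.1.1 and mm10. This conflict was not resolved. Members, gates and lists were chosen with earlier results of these data known. Named list genes have an adjusted p under 0.05 and are among the 6 largest by size in their list and comparison. Not all genes that meet this rule are named.

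Counts were read as deposited, nuclei filtered and gated, and sums tested with edgeR 4.0.16 (TMM, filterByExpr, quasi-likelihood, Benjamini-Hochberg at 0.05). Scrublet (scanpy 1.11.5) marked likely doublets. The settings varied were the test (edgeR's likelihood ratio, DESeq2 1.42.0), the count filter (none), a replicate block, leaving out each library, a stricter gate, at least 1500 genes, and, added after seeing the data, strict glia, fasting fits in further classes and a call without the oligodendrocyte panel. The scripts were tested on simulated data. Kept nuclei held 9763452 to 29703855 UMIs per library. The study states that its first fed and fasted libraries shared a preparation batch, as did its second; that the deposited replicate numbers are those of the study is inferred. Deviations of same-numbered fed and fasted libraries from their group means correlated at 0.32 and 0.49 in all inhibitory neurons, at 0.10 to 0.30 in the gates tested for fasting and at 0.06 and 0.09 in astrocytes. The p-values of the fasting tests within a class measure the spread between these pools. In the gate comparisons, where the library is a block, they rest on how the differences between gates vary from library to library. RefSeq promoter sequences were matched to GRCm39.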

Additional observations from a re-analysis of the deposited data

How the results depend on the processing

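The counts of genes called for fasting depended on the settings, in the order all inhibitory neurons, Cdh9 gate, Prkcd gate, Dnah5 gate and astrocytes, where the counts reported were 1, 0, 14, 5 and 69. The likelihood ratio test gave 117, 32, 79, 60 and 116, no filter on low counts gave 118, 68, 108, 113 and 173, and the replicate block of preparation batches gave 403, 50, 119, 124 and 188. DESeq2 gave 46, 2, 14, 19 and 44. Leaving out 1 library gave 1 to 11, 0 to 44, 0 to 33, 0 to 44 and 0 to 126. The stricter gate moved the Dnah5 count to 24, and leaving out the oligodendrocyte panel moved the Cdh9 count to 8. The cause was not tested. Of the gate comparisons, the fed libraries alone gave 696 genes for the Cdh9 gate in place of 1308. DESeq2, fitted to the Cdh9 and Prkcd gates alone, gave 1234 for their comparison in place of 2146. The replicate block changed no call of a member. Among member values under the alternatives, 427 stayed on the same side of the threshold and 9 lost their call, all 9 given in the report. The log2 ratio of Ramp1 with Calcrl stayed between 0.73 and 1.15 under the settings tried and between 1.06 and 1.16 when a library was left out. The stricter gate left the Dlk1 gate under 10 nuclei in a library and has no value for it. Under that setting the mean of the other gates also lacks the Dlk1 gate. The stricter gate does not apply to all inhibitory neurons or astrocytes. Depth limits Calcr, Ramp2 and Ramp3, which had at most 192 UMIs in 4323 nuclei.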

Other observations

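Calcrl was also found in microglia, the resident immune cells of the brain. In the 78 strict microglia it stood at 66.2, 75.4 and 47.2 CPM in the fed libraries and 70.0 and 44.7 in the fasted, from 25 UMIs, and 26.7% of the 45 that were thinned held a Calcrl UMI (95% exact interval 14.6% to 41.9%). Ramp1 was listed there at 8 UMIs. Gad2, which microglia should lack, stood at 116 CPM in the same nuclei, and its part in the Calcrl level was not tested.

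Among the 9804 genes compared between inhibitory nuclei with and without Calcrl of the same gate and depth, Fosb and Nr4a3, which encode transcription factors induced by neuronal activity, had the highest mean log2 ratios, 1.95 (0.71 to 3.16 over the 5 libraries) and 1.83 (0.77 to 2.76). They were named after their values were seen. The filter set a minimum of UMIs only for nuclei with Calcrl, which can favour sparse genes that are high there, so these ranks are a description with no test. The next 3 were Gm11639 at 1.70, Notch3 at 1.67 (-0.06 to 2.90) and Gm14406 at 1.60.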
